A study of Felis catus with 15 samples.

Results

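The 57 genes described here carry out or control the cell cycle, and they were taken from a fixed list of symbols sorted by phase. All 57 were found among the 38995 genes of the count table, and all 57 passed the filter on low counts that left 18038 genes for testing. By phase, 6 regulate the step from G1 into S phase, 17 act in DNA replication (S phase), and 34 act in G2 and mitosis. Expression was measured by RNA-seq in the epididymis of the domestic cat, the duct where sperm ripen, in its middle part or corpus. The library kit selects mRNA and keeps its strand. The libraries form 3 groups of 5: explants (pieces of tissue) cultured with extracellular vesicles from the caput, the upstream region of the duct; explants cultured without added vesicles; and fresh tissue. The question of the study was what the vesicles do to expression in the explants, and fresh tissue served as a further control. The labels carry a code that differs between fresh and cultured libraries. It may stand for days, but its meaning is not stated. The sources used here do not state the length of culture, the medium, the vesicle dose, or the breed, age and number of cats. Nor do they state whether replicates are separate animals. The p-values therefore measure the spread between these libraries, which may be technical.

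A cell divides by copying its DNA once and then parting the copies. Cyclins bound to their kinases drive each step, E2F factors switch on the genes needed for replication, a helicase loaded at replication origins opens the DNA, and FOXM1 and B-Myb switch on the genes needed for mitosis. At mitosis a spindle of microtubules and motor proteins pulls on kinetochores, and a checkpoint holds the cell until every chromosome is attached. In the adult epididymis most epithelial cells are known to divide rarely, so transcripts of these genes are usually scarce in intact tissue. In a bulk library, more cells that divide and more RNA per dividing cell cannot be told apart, nor can fewer cells of another type and less RNA in each.

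Total counts were 17308832 to 27420218 in culture with vesicles, 19308190 to 25454399 in culture and 17751507 to 24841100 in fresh tissue. Levels below are counts scaled to library size (CPM), given for replicates 1 to 5 in that order; ± is an SD for a level and a standard error (SE) for a log2 fold change, with n = 5 per group. One library, culture 3, stood apart: 13 mitochondrially encoded genes took 0.179% of its counts, against 6.23% to 7.48% in the other cultures. Among the 57 genes, 18 were more than 1.5-fold above the median of the other cultures in culture 3 and 14 more than 1.5-fold below it. Over all genes 27.3% were above and 34.3% below by this measure, so the scatter was not particular to the 57. Culture 3 was left out of the comparisons of culture with fresh tissue and between the cultures. Where this changed a call among the 57 genes, both values are given. The comparison of culture with vesicles and fresh tissue was not repeated with culture 3 alone left out. In fresh tissue 35 of the 57 genes were above 1 CPM in all 5 libraries, and 7 had no count in at least 1 of them (CCNE2, E2F8, CDT1, CDKN3, NDC80, CENPA and CENPE).

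**Figure D1:**
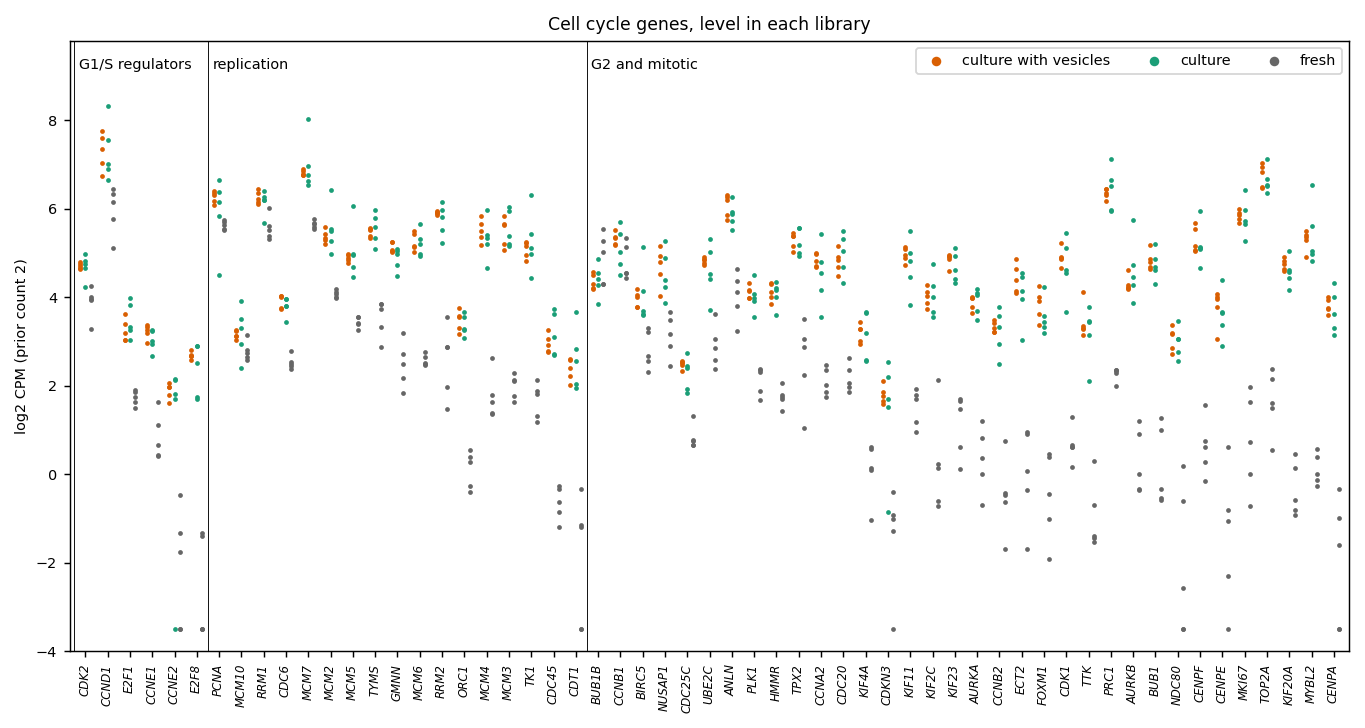
Level of each of the 57 genes in each of the 15 libraries, in log2 CPM with a prior count of 2, by phase. Points are single libraries, and within a phase genes run from the smallest to the largest change between culture and fresh tissue. For most genes the cultured libraries lie above all 5 fresh ones. Fresh libraries overlap with those of both cultures for BUB1B, CCNB1 and MCM10, and with those of culture alone for PCNA, CCNE2, CDK2, CDKN3 and RRM1.

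Nearly all of the genes were higher in cultured than in fresh corpus. In culture with vesicles against fresh tissue 53 of 57 were higher and 1 lower, and 3 were not called, where the calls over all genes came to 52.9% (27.4% higher, 25.5% lower). In culture against fresh tissue 53 were higher and 0 lower, and 4 were not called, where they came to 54.3% (28.7% higher, 25.6% lower). A gene was called at an adjusted p under 0.05 (edgeR, Benjamini-Hochberg over 18038 genes). The 5 libraries of a group lay wholly above the 5 fresh ones for 54 of the 57 genes in culture with vesicles (25.3% of all genes) and for 49 in culture (20.2% of all genes). The median log2 fold change was 3.21 in culture with vesicles and 3.18 in culture, against medians of 0.01 and 0.04 over all genes tested.

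The size of the change differed between phases. In culture against fresh tissue the median fold was 4.01 among the 6 G1 and S phase regulators, 5.09 among the 17 replication genes and 11.5 among the 34 mitotic genes. More than 4-fold higher were 3 of 6 regulators, 10 of 17 replication genes and 26 of 34 mitotic genes, where 9.64% of all genes were called with such a fold. Folds above 16 were seen for 1, 2 and 14 genes of these phases. In culture with vesicles the median folds over fresh tissue were 3.90, 6.04 and 11.9 in the same order of phases, and 3, 9 and 26 genes were more than 4-fold higher (9.39% of all genes). The mean log2 CPM of the mitotic genes stood below that of the replication genes by 0.44 in culture with vesicles (difference -0.44 ± 0.13, SD), by 0.55 in culture (-0.55 ± 0.17) and by 1.55 in fresh tissue (-1.55 ± 0.45). These differences are a description of the lists, with no test.

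**Figure D2:**
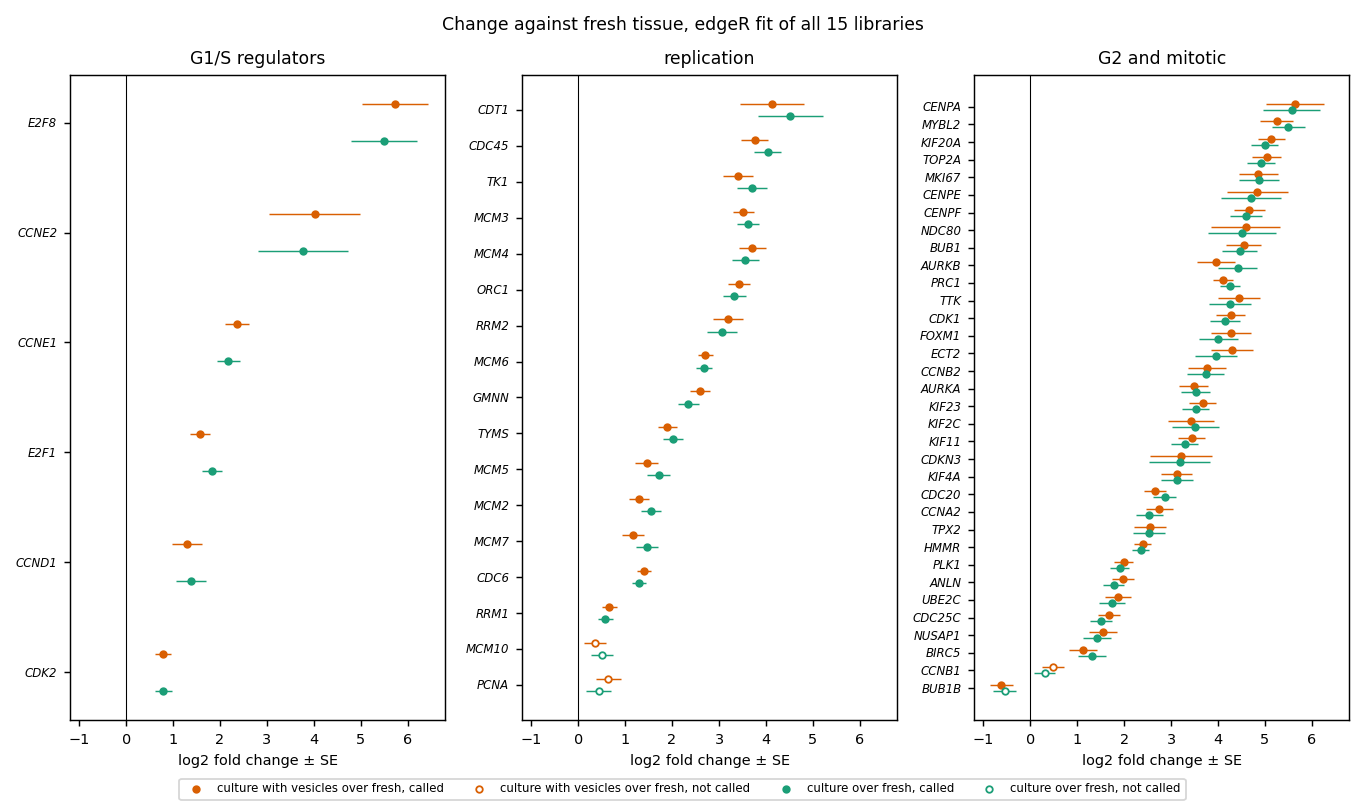
Log2 fold change over fresh tissue with its SE for each of the 57 genes, in culture with vesicles (orange) and in culture (green), from 1 fit of all 15 libraries. Filled points passed an adjusted p under 0.05 and open points did not. Mitotic genes reach farthest to the right, with 14 of 34 above 16-fold in culture, and BUB1B alone lies left of 0.

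Of the regulators of S phase entry, 6 of 6 were higher in both cultures. Cyclin D1, which starts the run towards S phase with CDK4 and CDK6, showed a modest change: CCND1 had 130.4, 163, 217, 107 and 193 CPM in culture with vesicles, 100.3, 129, 321, 119 and 187 CPM in culture and 54.5, 71.6, 87.5, 34.7 and 80.4 CPM in fresh tissue. The cultured libraries lay above the fresh ones without overlap, and the highest value was that of culture 3. CCND1 changed by 1.30 ± 0.32 with vesicles (log2, adjusted p = 0.00329) and by 1.38 ± 0.32 in culture (adjusted p = 0.00214). Cyclin E, the partner of CDK2 at the start of S phase, comes from a pair of genes. CCNE1 had 7.74, 9.90, 9.10, 10.3 and 9.47 CPM in culture with vesicles, 6.34, 9.37, 7.63, 9.52 and 8.01 CPM in culture and 1.27, 1.49, 2.07, 3.002 and 1.24 CPM in fresh tissue. CCNE1 had a log2 fold change over fresh tissue of 2.36 ± 0.25 with vesicles (adjusted p = 1.76e-06) and of 2.17 ± 0.25 in culture (adjusted p = 3.83e-06). CCNE2 had 2.96, 3.39, 4.09, 3.86 and 3.83 CPM in culture with vesicles, 3.43, 4.39, 0, 4.32 and 3.16 CPM in culture and 0, 0, 0.308, 0.635 and 0.206 CPM in fresh tissue. All cultured libraries except culture 3, which held no CCNE2 count, were above every fresh library. With vesicles CCNE2 stood at a log2 fold change of 4.02 ± 0.96 (adjusted p = 0.00251), and in culture at 3.78 ± 0.96 (adjusted p = 0.00363). Without fresh 4, the fresh library with the most CCNE2, the values were 4.80 and 4.56.

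CDK2 itself, the kinase, had 24.7, 25.2, 27.6, 26.9 and 25.9 CPM in culture with vesicles, 26.7, 31.7, 18.6, 28.3 and 25.1 CPM in culture and 16.02, 9.67, 15.5, 18.9 and 15.2 CPM in fresh tissue. Culture 3 was its only cultured library within the fresh range. For CDK2 the fold changes (log2) were 0.79 ± 0.17 with vesicles, adjusted p = 0.00126, and 0.79 ± 0.17 in culture, adjusted p = 0.00121. E2F1, an activator of replication genes, had 8.06, 12.2, 9.06, 8.15 and 10.4 CPM in culture with vesicles, 9.93, 15.8, 14.02, 9.56 and 8.12 CPM in culture and 2.72, 3.01, 3.52, 3.64 and 3.25 CPM in fresh tissue, with no overlap between cultured and fresh libraries. The fit gave E2F1 a log2 fold change of 1.57 ± 0.21 with vesicles (adjusted p = 1.90e-05) and of 1.83 ± 0.21 in culture (adjusted p = 4.47e-06). E2F8, a repressor that E2F1 is known to induce, was close to undetected in fresh tissue, with 12 counts over the 5 libraries. It had 6.42, 6.25, 6.96, 5.94 and 6.31 CPM in culture with vesicles, 5.67, 7.36, 3.27, 7.44 and 3.16 CPM in culture and 0, 0, 0.308, 0.289 and 0 CPM in fresh tissue. The log2 fold changes over fresh tissue were 5.73 ± 0.71 with vesicles (adjusted p = 7.87e-06) and 5.49 ± 0.70 in culture (adjusted p = 1.13e-05). Since 3 fresh libraries had no E2F8 count, this size is uncertain, and without fresh 3 the values were 6.56 and 6.32.

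Among the replication genes, 15 of 17 were higher in each culture and 0 were lower. Origins are licensed when ORC, CDC6 and CDT1 load the helicase MCM2 to MCM7, while geminin (GMNN) blocks a second loading. ORC1 was at 8.94 to 13.4 CPM with vesicles, 8.43 to 12.7 CPM in culture and 0.670 to 1.39 CPM in fresh tissue, and its log2 fold changes were 3.43 ± 0.24 with vesicles and 3.33 ± 0.24 in culture. CDC6 had 13.5, 16.1, 13.3, 16.3 and 16.3 CPM in culture with vesicles, 13.9, 15.5, 13.96, 15.6 and 10.8 CPM in culture and 5.57, 5.34, 6.82, 5.71 and 5.10 CPM in fresh tissue, and every cultured library was above every fresh one. CDC6 changed by 1.40 ± 0.15 with vesicles (log2, adjusted p = 2.01e-06) and by 1.29 ± 0.15 in culture (adjusted p = 4.57e-06). CDT1 was at 3.94 to 6.03 CPM with vesicles, 3.80 to 12.7 CPM in culture and 0 to 0.704 CPM in fresh tissue, with 31 counts over all fresh libraries. CDT1 had a log2 fold change over fresh tissue of 4.13 ± 0.68 with vesicles (adjusted p = 0.000126) and of 4.52 ± 0.69 in culture (adjusted p = 6.19e-05); without fresh 3 they were 4.80 and 5.19. GMNN had 32.9, 33.3, 32.6, 37.7 and 38.3 CPM in culture with vesicles, 26.4, 34.2, 22.1, 33.03 and 31.6 CPM in culture and 3.51, 5.54, 4.45, 9.005 and 6.49 CPM in fresh tissue. The loading factors and their inhibitor thus stood higher together. With vesicles GMNN stood at a log2 fold change of 2.59 ± 0.22 (adjusted p = 2.13e-07), and in culture at 2.35 ± 0.22 (adjusted p = 5.45e-07).

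The 6 subunits of the MCM helicase were all higher, but not by the same amount. MCM6, with the smallest p of the licensing genes, had 32.6, 45.4, 35.7, 35.2 and 43.3 CPM in culture with vesicles, 36.8, 50.1, 31.5, 39.7 and 30.7 CPM in culture and 6.71, 6.18, 5.50, 5.43 and 5.62 CPM in fresh tissue. For MCM6 the fold changes (log2) were 2.70 ± 0.16 with vesicles, adjusted p = 9.34e-09, and 2.68 ± 0.16 in culture, adjusted p = 9.80e-09. MCM2 had 36.7, 47.8, 43.05, 39.5 and 40.7 CPM in culture with vesicles, 38.4, 46.9, 86.01, 44.9 and 31.5 CPM in culture and 15.8, 17.4, 18.2, 16.8 and 15.98 CPM in fresh tissue. Culture 3 was well above the other cultures for MCM2 and level with them for MCM6. The fit gave MCM2 a log2 fold change of 1.30 ± 0.21 with vesicles (adjusted p = 0.000108) and of 1.56 ± 0.21 in culture (adjusted p = 2.15e-05). In culture against fresh tissue MCM3 (log2 3.61 ± 0.23) and MCM4 (3.56 ± 0.29) changed most, MCM6 by 2.68 ± 0.16, and MCM5 (1.71 ± 0.24), MCM2 and MCM7 (1.46 ± 0.23) least. In culture with vesicles the order from MCM4 (3.71 ± 0.29) and MCM3 (3.52 ± 0.23) down to MCM7 (1.17 ± 0.23) was much alike. Their levels were 33.6 to 57.3 CPM with vesicles, 35.5 to 65.9 CPM in culture and 3.04 to 4.78 CPM in fresh tissue for MCM3, 36.3 to 57.1 CPM with vesicles, 25.3 to 62.8 CPM in culture and 2.48 to 6.07 CPM in fresh tissue for MCM4, 27.3 to 31.6 CPM with vesicles, 21.8 to 66.9 CPM in culture and 9.48 to 11.8 CPM in fresh tissue for MCM5 and 109 to 119.8 CPM with vesicles, 93.6 to 263 CPM in culture and 46.6 to 54.2 CPM in fresh tissue for MCM7. CDC45, which joins the MCM ring to form the active helicase, was at 6.71 to 9.46 CPM with vesicles, 6.43 to 13.3 CPM in culture and 0.346 to 0.748 CPM in fresh tissue, and its log2 fold changes were 3.76 ± 0.29 with vesicles and 4.04 ± 0.29 in culture.

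The genes of nucleotide supply were called higher, and the sliding clamp was not called. Ribonucleotide reductase makes deoxynucleotides from a constant large subunit, RRM1, and a small subunit, RRM2, that is known to be made in S phase. RRM2 had 60.1, 61.2, 58.1, 59.7 and 61.4 CPM in culture with vesicles, 56.1, 70.9, 45.5, 62.8 and 37.6 CPM in culture and 7.29, 7.26, 2.68, 3.81 and 11.7 CPM in fresh tissue. The 5 libraries with vesicles lay within 58.1 to 61.4 CPM, and the fresh ones spread over 2.68 to 11.7 CPM. The log2 fold changes over fresh tissue were 3.20 ± 0.32 with vesicles (adjusted p = 9.64e-07) and 3.06 ± 0.32 in culture (adjusted p = 1.45e-06). RRM1 was at 68.5 to 86.9 CPM with vesicles, 51.5 to 84.99 CPM in culture and 40.03 to 64.8 CPM in fresh tissue, so culture and fresh tissue overlapped, and its log2 fold changes were 0.67 ± 0.15 with vesicles and 0.58 ± 0.15 in culture. Thymidine kinase, TK1, which salvages thymidine, had 35.4, 37.4, 38.3, 30.9 and 28.2 CPM in culture with vesicles, 31.4, 42.97, 79.1, 34.6 and 21.6 CPM in culture and 2.19, 3.45, 3.61, 2.42 and 4.33 CPM in fresh tissue. TK1 changed by 3.41 ± 0.31 with vesicles (log2, adjusted p = 4.54e-07) and by 3.71 ± 0.32 in culture (adjusted p = 2.22e-07). Thymidylate synthase, TYMS, was at 40.3 to 47.6 CPM with vesicles, 33.9 to 62.9 CPM in culture and 7.22 to 14.4 CPM in fresh tissue, and its log2 fold changes were 1.90 ± 0.20 with vesicles and 2.02 ± 0.20 in culture.

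The replication genes that were not called are PCNA and MCM10. PCNA, the clamp that holds the polymerase on DNA and a common marker of proliferating cells, had 72.8, 85.05, 79.99, 81.9 and 67.4 CPM in culture with vesicles, 71.7, 101, 22.5, 83.6 and 57.1 CPM in culture and 49.9, 46.6, 53.4, 51.7 and 46.2 CPM in fresh tissue. The libraries with vesicles lay above all fresh ones, and so did all cultures other than culture 3, which was the lowest of the 15. PCNA had a log2 fold change over fresh tissue of 0.64 ± 0.27 with vesicles (adjusted p = 0.0527) and of 0.44 ± 0.27 in culture (adjusted p = 0.174). Without culture 3 the value in culture was 0.67 ± 0.13 (adjusted p = 0.00064), so that the missing call rests on that library. MCM10, a factor that helps start replication forks, had 8.17, 9.33, 9.51, 8.66 and 8.62 CPM in culture with vesicles, 7.64, 9.78, 15.1, 11.4 and 5.22 CPM in culture and 8.73, 5.94, 6.21, 6.58 and 6.96 CPM in fresh tissue. With vesicles MCM10 stood at a log2 fold change of 0.36 ± 0.23 (adjusted p = 0.205), and in culture at 0.51 ± 0.23 (adjusted p = 0.0762). Without culture 5, the lowest culture, it was 0.67 ± 0.20 in culture (adjusted p = 0.0129). In the RefSeq gene table MCM10 overlaps PHYH, which averaged 74.99 CPM in culture with vesicles, 67.1 CPM in culture and 287 CPM in fresh tissue. As the strand setting of the counts is not given, reads of the pair may not have been told apart.

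Of the 12 kinases, cyclins, phosphatases and regulators of mitosis, 11 were higher in each culture. They are named entry genes below, although not all of them act at entry into mitosis. CDK1, the kinase that drives it, had 25.3, 28.96, 37.2, 29.8 and 29.5 CPM in culture with vesicles, 24.5, 43.6, 12.6, 34.7 and 23.5 CPM in culture and 1.45, 1.49, 1.45, 1.04 and 2.37 CPM in fresh tissue. No cultured library came near the fresh ones, though culture 3 was the lowest of the 10. For CDK1 the fold changes (log2) were 4.27 ± 0.32 with vesicles, adjusted p = 5.55e-08, and 4.15 ± 0.31 in culture, adjusted p = 7.15e-08. Cyclin A2, a partner of both CDK2 and CDK1, had 25.8, 31.4, 32.1, 25.9 and 28.2 CPM in culture with vesicles, 23.4, 43.2, 11.7, 27.6 and 17.8 CPM in culture and 5.05, 5.42, 3.96, 3.29 and 3.56 CPM in fresh tissue (CCNA2). The fit gave CCNA2 a log2 fold change of 2.75 ± 0.29 with vesicles (adjusted p = 1.56e-06) and of 2.54 ± 0.29 in culture (adjusted p = 3.27e-06). The B cyclins are the main partners of CDK1 at mitosis, and they parted ways. CCNB2 had 9.20, 9.25, 9.79, 10.6 and 11.1 CPM in culture with vesicles, 9.97, 13.8, 7.58, 11.9 and 5.53 CPM in culture and 0.219, 0.562, 0.660, 0.635 and 1.60 CPM in fresh tissue. The log2 fold changes over fresh tissue were 3.77 ± 0.40 with vesicles (adjusted p = 1.83e-06) and 3.73 ± 0.40 in culture (adjusted p = 2.07e-06). CCNB1, by contrast, was already at a like level in fresh tissue: it had 37.00, 36.4, 46.04, 40.6 and 40.9 CPM in culture with vesicles, 32.3, 52.1, 22.6, 43.2 and 26.9 CPM in culture and 40.2, 21.7, 23.4, 35.1 and 23.3 CPM in fresh tissue. The 3 groups overlapped. CCNB1 had a log2 fold change over fresh tissue of 0.48 ± 0.23 with vesicles (adjusted p = 0.0856) and of 0.30 ± 0.23 in culture (adjusted p = 0.274). Without fresh 1, the highest fresh library, the value with vesicles was 0.64 ± 0.23 (adjusted p = 0.0322).

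Factors that switch on mitotic genes, MYBL2 and FOXM1, were more than 16-fold higher in each culture. MYBL2 (B-Myb) had the smallest p of the entry genes: it had 42.5, 29.8, 41.1, 44.98 and 39.00 CPM in culture with vesicles, 28.4, 32.9, 92.9, 49.2 and 31.6 CPM in culture and 1.23, 1.40, 0.748, 0.924 and 0.825 CPM in fresh tissue. Culture 3 was the highest, and the other cultured libraries lay together. MYBL2 had a log2 fold change over fresh tissue of 5.25 ± 0.35 with vesicles (adjusted p = 2.51e-08) and of 5.50 ± 0.36 in culture (adjusted p = 1.90e-08). FOXM1 had 12.3, 19.1, 14.97, 10.4 and 16.1 CPM in culture with vesicles, 11.9, 18.8, 9.97, 10.8 and 9.12 CPM in culture and 0.176, 0.642, 1.23, 0.404 and 1.29 CPM in fresh tissue. With vesicles FOXM1 stood at a log2 fold change of 4.27 ± 0.43 (adjusted p = 9.84e-07), and in culture at 4.01 ± 0.42 (adjusted p = 1.71e-06). FOXM1 overlaps RHNO1 in the RefSeq table, and RHNO1 averaged 15.5 CPM in culture with vesicles, 12.5 CPM in culture and 7.76 CPM in fresh tissue. AURKB, the Aurora kinase that corrects faulty attachments, had 18.1, 19.4, 24.4, 18.5 and 18.8 CPM in culture with vesicles, 19.3, 26.4, 53.7, 21.99 and 14.7 CPM in culture and 0.702, 0.923, 2.20, 0.693 and 1.80 CPM in fresh tissue. For AURKB the fold changes (log2) were 3.96 ± 0.40 with vesicles, adjusted p = 1.14e-06, and 4.42 ± 0.41 in culture, adjusted p = 4.76e-07.

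The remaining entry genes were called as well. AURKA, the Aurora kinase of the spindle poles, was at 12.3 to 16.1 CPM with vesicles, 11.1 to 18.1 CPM in culture and 0.527 to 2.22 CPM in fresh tissue, and its log2 fold changes were 3.48 ± 0.31 with vesicles and 3.53 ± 0.31 in culture. PLK1, a kinase acting throughout mitosis, was at 15.7 to 19.8 CPM with vesicles, 11.7 to 22.6 CPM in culture and 3.12 to 5.15 CPM in fresh tissue, and its log2 fold changes were 1.99 ± 0.20 with vesicles and 1.90 ± 0.20 in culture. By the same table it overlaps ERN2, which averaged 1.16 CPM with vesicles, 1.22 CPM in culture and 16.5 CPM in fresh tissue. CDC25C, a phosphatase that activates CDK1, was at 4.96 to 5.80 CPM with vesicles, 3.48 to 6.63 CPM in culture and 1.49 to 2.42 CPM in fresh tissue, and its log2 fold changes were 1.68 ± 0.23 with vesicles and 1.51 ± 0.23 in culture. Smaller changes and lower counts mark the last members. BIRC5 (survivin), a partner of AURKB, was at 13.6 to 18.3 CPM with vesicles, 12.1 to 35.1 CPM in culture and 4.87 to 9.75 CPM in fresh tissue, and its log2 fold changes were 1.12 ± 0.29 with vesicles and 1.32 ± 0.30 in culture. CDKN3, a phosphatase that acts on cyclin-dependent kinases, was at 2.91 to 4.25 CPM with vesicles, 0.467 to 5.72 CPM in culture and 0 to 0.670 CPM in fresh tissue, with 1 fresh library without a count. The fit gave CDKN3 a log2 fold change of 3.21 ± 0.65 with vesicles (adjusted p = 0.000723) and of 3.18 ± 0.65 in culture (adjusted p = 0.000754).

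Of the 7 kinetochore and checkpoint genes 6 were higher in both cultures, by more than 16-fold each. CENPF, a kinetochore protein of G2 and mitosis with the smallest p of this role, had 35.8, 33.00, 51.3, 33.6 and 46.4 CPM in culture with vesicles, 34.3, 35.2, 61.4, 34.3 and 25.4 CPM in culture and 1.45, 1.12, 1.58, 0.808 and 2.89 CPM in fresh tissue. The log2 fold changes over fresh tissue were 4.67 ± 0.33 with vesicles (adjusted p = 4.05e-08) and 4.60 ± 0.33 in culture (adjusted p = 4.65e-08). BUB1, a kinase of the spindle checkpoint, had 29.1, 25.01, 36.2, 25.6 and 27.95 CPM in culture with vesicles, 25.6, 36.7, 24.6, 29.1 and 19.5 CPM in culture and 0.702, 0.602, 2.33, 0.577 and 1.91 CPM in fresh tissue. Fresh 3 and fresh 5 were above the other fresh libraries for BUB1, and still far below every cultured one. BUB1 changed by 4.55 ± 0.38 with vesicles (log2, adjusted p = 1.59e-07) and by 4.46 ± 0.38 in culture (adjusted p = 1.87e-07). CENPA, the histone that marks centromeres, was at 12.1 to 16.1 CPM with vesicles, 8.80 to 19.98 CPM in culture and 0 to 0.704 CPM in fresh tissue. CENPA had a log2 fold change over fresh tissue of 5.64 ± 0.62 with vesicles (adjusted p = 2.31e-06) and of 5.57 ± 0.61 in culture (adjusted p = 2.65e-06); without fresh 3 they were 6.36 and 6.29. CENPE, a kinetochore motor, was at 8.19 to 16.8 CPM with vesicles, 7.42 to 20.9 CPM in culture and 0 to 1.44 CPM in fresh tissue. With vesicles CENPE stood at a log2 fold change of 4.84 ± 0.64 (adjusted p = 1.65e-05), and in culture at 4.70 ± 0.64 (adjusted p = 2.05e-05); without fresh 5 they were 5.75 and 5.61. NDC80, which binds microtubules, was at 6.49 to 10.2 CPM with vesicles, 5.81 to 10.9 CPM in culture and 0 to 1.06 CPM in fresh tissue. For NDC80 the fold changes (log2) were 4.59 ± 0.73 with vesicles, adjusted p = 8.40e-05, and 4.51 ± 0.72 in culture, adjusted p = 9.32e-05; without fresh 3 they were 5.69 and 5.61. TTK (MPS1), the kinase that sets off the checkpoint, was at 8.78 to 17.4 CPM with vesicles, 4.20 to 13.8 CPM in culture and 0.258 to 1.14 CPM in fresh tissue, and its log2 fold changes were 4.45 ± 0.45 with vesicles and 4.25 ± 0.45 in culture.

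BUB1B (BubR1), which works beside BUB1 in the same checkpoint, was the 1 gene of the 57 with a negative fold change over fresh tissue. It had 18.1, 23.6, 22.7, 18.6 and 19.6 CPM in culture with vesicles, 21.2, 29.2, 23.4, 19.4 and 14.4 CPM in culture and 19.6, 38.7, 46.6, 19.7 and 32.7 CPM in fresh tissue. Fresh tissue split into 2 libraries near 20 CPM, which overlap the cultured ones, and 3 libraries at 32.7 to 46.6 CPM, above all cultured ones. The fit gave BUB1B a log2 fold change of -0.62 ± 0.24 with vesicles (adjusted p = 0.0433) and of -0.55 ± 0.24 in culture (adjusted p = 0.0676). With vesicles the call was lost without any 1 of 7 libraries (fresh 2, 3 or 5, or culture with vesicles 1, 3, 4 or 5; adjusted p = 0.0515 to 0.144), and in culture a call was gained without culture 2, fresh 1 or fresh 4 (adjusted p = 0.0268 to 0.0349). With the replicate number as a block BUB1B was called lower in culture too (-0.51 ± 0.19, adjusted p = 0.0386).

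**Figure D3:**
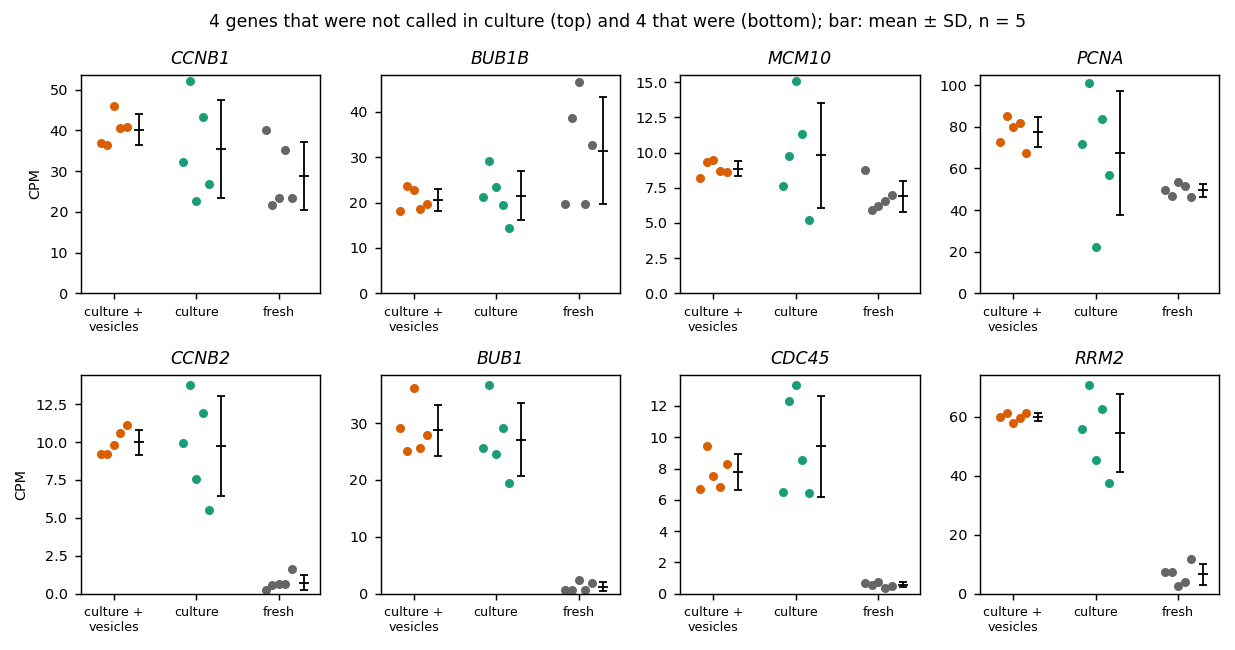
CPM in each library for the 4 genes that were not called in culture against fresh tissue (top) and for 4 called genes of like role (bottom), with group mean and SD, n = 5. For the top genes cultured and fresh libraries overlap, while CCNB2, BUB1, CDC45 and RRM2 lie far lower in fresh tissue than in any cultured library.

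All 11 genes of the spindle and of cytokinesis were higher, and their cultured and fresh libraries did not overlap. PRC1, which bundles microtubules midway between the separating chromosomes, had the smallest p of the 57: it had 81.5, 72.9, 87.5, 86.6 and 79.7 CPM in culture with vesicles, 62.4, 91.98, 139, 101 and 61.8 CPM in culture and 3.91, 5.06, 4.97, 4.79 and 5.05 CPM in fresh tissue. The log2 fold changes over fresh tissue were 4.10 ± 0.22 with vesicles (adjusted p = 4.71e-09) and 4.26 ± 0.22 in culture (adjusted p = 3.50e-09). KIF20A, a motor of cytokinesis, had 24.7, 26.8, 28.4, 24.1 and 30.1 CPM in culture with vesicles, 23.7, 33.1, 21.7, 24.6 and 17.9 CPM in culture and 0.439, 0.482, 1.01, 0.577 and 1.29 CPM in fresh tissue. KIF20A changed by 5.14 ± 0.29 with vesicles (log2, adjusted p = 6.98e-09) and by 4.99 ± 0.29 in culture (adjusted p = 8.46e-09). The motors KIF11 and KIF23, of spindle poles and of the midzone, were at 26.4 to 35.2 CPM with vesicles, 14.2 to 45.3 CPM in culture and 1.85 to 3.74 CPM in fresh tissue and 24.2 to 30.9 CPM with vesicles, 19.8 to 34.5 CPM in culture and 1.003 to 3.17 CPM in fresh tissue. Their log2 fold changes were 3.44 ± 0.29 with vesicles and 3.29 ± 0.29 in culture and 3.67 ± 0.29 with vesicles and 3.53 ± 0.29 in culture. KIF4A, a chromosome-bound motor, was at 7.60 to 10.7 CPM with vesicles, 5.79 to 12.7 CPM in culture and 0.401 to 1.44 CPM in fresh tissue (3.12 ± 0.34 with vesicles and 3.12 ± 0.34 in culture). KIF2C, which takes microtubules apart at centromeres, was at 13.2 to 19.2 CPM with vesicles, 11.6 to 26.7 CPM in culture and 0.520 to 4.33 CPM in fresh tissue (3.42 ± 0.49 with vesicles and 3.52 ± 0.49 in culture; without fresh 5 these were 4.32 with vesicles and 4.41 in culture).

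ECT2, which starts the contractile ring, was at 17.2 to 29.1 CPM with vesicles, 8.10 to 23.2 CPM in culture and 0.219 to 1.85 CPM in fresh tissue (4.30 ± 0.45 with vesicles and 3.96 ± 0.44 in culture). The ring protein ANLN was at 53.8 to 78.9 CPM with vesicles, 45.9 to 77.01 CPM in culture and 9.41 to 25.04 CPM in fresh tissue (1.98 ± 0.23 with vesicles and 1.78 ± 0.23 in culture). HMMR, a spindle-associated protein, was at 14.3 to 20.1 CPM with vesicles, 12.1 to 20.3 CPM in culture and 2.59 to 4.12 CPM in fresh tissue (2.40 ± 0.18 with vesicles and 2.35 ± 0.18 in culture). Among the 11, the smallest changes belonged to NUSAP1 and ANLN. TPX2, which activates AURKA on the spindle, was at 32.3 to 43.9 CPM with vesicles, 30.4 to 47.5 CPM in culture and 1.96 to 11.3 CPM in fresh tissue (2.55 ± 0.33 with vesicles and 2.53 ± 0.33 in culture), and NUSAP1, which stabilizes spindle microtubules, was at 16.2 to 35.7 CPM with vesicles, 14.6 to 38.7 CPM in culture and 5.35 to 12.6 CPM in fresh tissue (1.55 ± 0.30 with vesicles and 1.43 ± 0.30 in culture).

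CDC20 and UBE2C feed the anaphase-promoting complex, which ends mitosis by marking cyclin B for destruction. CDC20 had 28.9, 22.2, 30.1, 35.9 and 25.7 CPM in culture with vesicles, 25.8, 33.2, 45.2, 39.6 and 19.9 CPM in culture and 4.08, 3.53, 5.06, 6.06 and 3.81 CPM in fresh tissue. CDC20 had a log2 fold change over fresh tissue of 2.66 ± 0.24 with vesicles (adjusted p = 3.06e-07) and of 2.86 ± 0.24 in culture (adjusted p = 1.63e-07). UBE2C was at 26.5 to 29.8 CPM with vesicles, 13.1 to 39.9 CPM in culture and 5.14 to 12.2 CPM in fresh tissue, and its log2 fold changes were 1.87 ± 0.28 with vesicles and 1.75 ± 0.28 in culture. Both were higher in every cultured library than in any fresh one. MKI67, the Ki-67 protein that coats mitotic chromosomes and is absent from resting cells, had 54.6, 50.97, 63.9, 58.2 and 60.2 CPM in culture with vesicles, 50.8, 52.98, 85.96, 62.8 and 38.6 CPM in culture and 0.922, 1.57, 3.04, 0.520 and 3.81 CPM in fresh tissue. Fresh 3 and fresh 5 stood above the other fresh libraries. With vesicles MKI67 stood at a log2 fold change of 4.86 ± 0.42 (adjusted p = 2.44e-07), and in culture at 4.88 ± 0.42 (adjusted p = 2.46e-07). TOP2A, which untangles DNA before chromosomes separate, had 90.6, 113, 131, 88.9 and 123 CPM in culture with vesicles, 91.3, 139, 93.1, 102 and 81.4 CPM in culture and 2.72, 2.97, 5.15, 1.39 and 4.38 CPM in fresh tissue. For TOP2A the fold changes (log2) were 5.03 ± 0.30 with vesicles, adjusted p = 9.43e-09, and 4.92 ± 0.30 in culture, adjusted p = 1.09e-08.

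Within fresh tissue the mitotic genes varied together. Fresh 5 had the highest level for 14 of the 34 and fresh 3 for 13, while fresh 1 was lowest for 14 and fresh 4 for 12. The mean log2 CPM of the mitotic genes was 0.52, 0.91, 1.52, 0.59 and 1.58 in fresh 1 to 5, and that of the replication genes was 2.61, 2.55, 2.69, 2.43 and 2.60. On this scale the mitotic mean varied far more between these libraries than the replication mean did. Many mitotic genes were near the floor, where log2 values spread widely. Above 1 CPM in all 5 fresh libraries were 17 of 34 mitotic and 14 of 17 replication genes. Summed over genes, fresh levels were 128 to 195 CPM for the mitotic and 221 to 245 CPM for the replication genes. A list of 10 sperm and late germ cell transcripts was ranked the same way in fresh tissue: its mean log2 CPM was -0.21, 1.43, 1.74, 0.46 and 2.62 in fresh 1 to 5. Summed, that list stood at 5.34 to 10.54 CPM in culture with vesicles, 5.29 to 10.9 CPM in culture and 37.3 to 94.5 CPM in fresh tissue. Of its genes 7 of 7 tested were lower in each culture, where 25.5% of all genes were lower with vesicles and 25.6% in culture. Its part in the fresh mitotic levels was not tested.

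Over the 57 genes the median SD of log2 CPM was 0.18 in culture with vesicles, 0.48 in culture (0.36 without culture 3) and 0.51 in fresh tissue, where over all genes tested it was 0.29, 0.54 (0.30 without culture 3) and 0.29. Culture 2 was the highest of its group for 22 of 34 mitotic genes, and culture 5 the lowest for 19. With vesicles, replicate 3 was the highest for 20 mitotic genes and replicate 2 for 11 of 17 replication genes. The largest departures in culture 3 went both ways: MYBL2, AURKB, CDT1, CCND1, MCM7, TK1 and MCM2 were high there, and CCNE2, CDKN3, PCNA, TTK, ECT2, CDK1 and CCNA2 were low. Without culture 3, 54 of the 57 genes were higher in culture than in fresh tissue and 0 lower (59.9% of 18517 genes called in either direction), and no called fold of the 57 moved by more than 1.5 times.

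**Figure D4:**
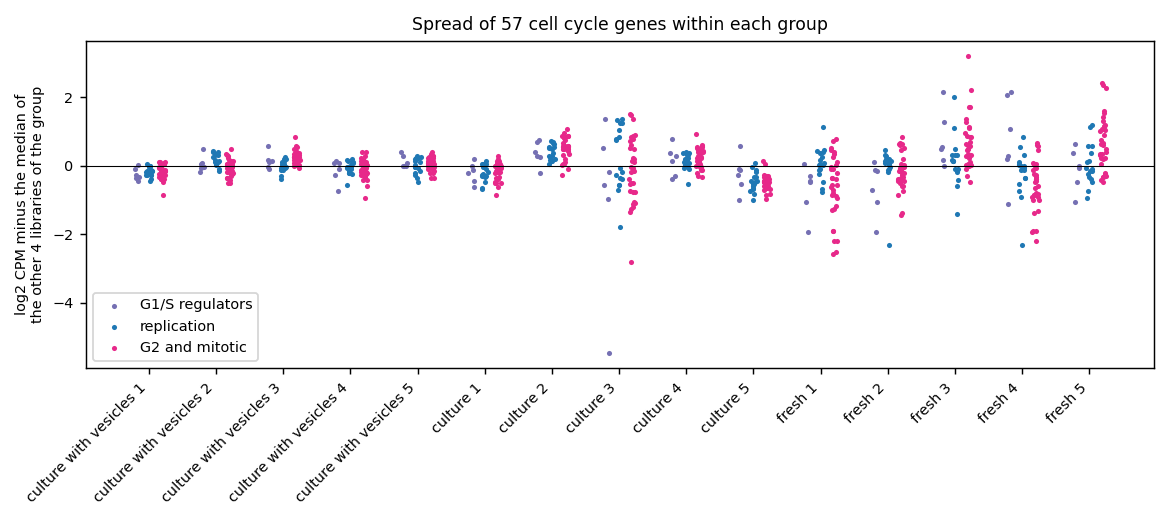
Each of the 57 genes in each library, as log2 CPM minus the median of the other 4 libraries of its group. Culture 3 spreads widely in both directions (SD 1.17, against 1.22 over all genes). Fresh 3 and fresh 5 sit mostly above 0, and the 5 libraries with vesicles lie close to 0.

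No change of the 57 genes with caput vesicles was detected. Between culture with vesicles and culture 0 of 57 genes were called by edgeR, where 0% of all genes were called, and 0 of 57 had an unadjusted p under 0.05, against 183 of 18038 genes (1.01%). DESeq2 and limma-voom called 0 genes as well, with 0 and 1 of the 57 (CENPF) at an unadjusted p under 0.05. Log2 fold changes ran from -0.46 (AURKB) to 0.35 (ECT2) with a median of 0.07, and 35 genes were above 0 and 22 below. The 5 genes of smallest p were AURKB (-0.46 ± 0.35), E2F1 (-0.26 ± 0.20), MCM7 (-0.29 ± 0.23), MCM2 (-0.25 ± 0.21) and GMNN (0.25 ± 0.21), each with an edgeR adjusted p of 1.00. They were higher with vesicles in 1, 1, 3, 2 and 4 of 5 same-numbered pairs. Culture 3 was the highest culture for AURKB, MCM7 and MCM2, and without culture 3 the fold changes of all 57 genes lay between -0.25 and 0.31. These values are from the fit that does not pair the libraries. With the replicate number as a block edgeR called 0 genes too, and 0 of the 57 had an unadjusted p under 0.05 (smallest adjusted p = 0.967, GMNN).

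A p that misses the threshold does not show that the cultures were alike, and the intervals give what the data allow. For 46 of the 57 genes the 95% interval of the fold change with vesicles lay within 2-fold in either direction, and with the replicate number as a block it did so for 50. The 11 others were CCNE2, E2F8, CDT1, CDKN3, AURKB, FOXM1, NDC80, CENPA, CENPE, KIF2C and ECT2, and the widest limits were -1.59 for CDT1 and 1.94 for CCNE2 on the log2 scale. AURKB had an interval of -1.19 to 0.28, and CCNE1 one of -0.31 to 0.68.

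Same-numbered libraries differed in both directions. With vesicles 39 of the 57 genes were higher in replicate 1, 8 in replicate 2, 32 in replicate 3, 10 in replicate 4 and 57 in replicate 5, and the median difference of log2 CPM was 0.07, -0.26, 0.24, -0.11 and 0.43. The difference thus ran mostly upward in replicate 5 and mostly downward in replicates 2 and 4, and was mixed in replicates 1 and 3. CCNE1 was the 1 gene that was higher with vesicles in 5 of 5 pairs (0.19 ± 0.23, edgeR adjusted p = 1.00), and 0 genes were lower in all 5.

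Other genes of the cycle, from 5 lists that do not hold any of the 57, were counted in the same fits. Over all genes 27.4% were called higher and 25.5% lower in culture with vesicles, and 28.7% and 25.6% in culture. Of 60 other mitotic genes, 54 were higher and 2 lower in culture with vesicles, and 53 higher and 1 lower in culture, than in fresh tissue (median log2 fold change 2.85 with vesicles and 3.06 in culture). Those with the smallest p in culture were HJURP, which deposits CENPA (4.39 ± 0.31 with vesicles and 4.68 ± 0.32 in culture), the Aurora B partner CDCA8 (3.37 ± 0.24 with vesicles and 3.37 ± 0.24 in culture) and the motor KIFC1 (4.35 ± 0.33 with vesicles and 4.58 ± 0.34 in culture). CIT, a kinase of the midbody, was lower, at 12.5 ± 1.56 CPM with vesicles, 13.4 ± 2.51 CPM in culture and 94.4 ± 25.9 CPM in fresh tissue (-2.92 ± 0.19 with vesicles and -2.82 ± 0.19 in culture).

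The other replication genes went both ways. Of 47, 26 were higher and 5 lower in culture with vesicles, and 26 higher and 6 lower in culture. The medians were 0.51 with vesicles and 0.77 in culture, and without culture 3 the counts in culture were 31 higher and 6 lower. The shares over all genes were 27.4% higher and 25.5% lower with vesicles, and 28.7% and 25.6% in culture. ORC6 (3.77 ± 0.28 with vesicles and 3.64 ± 0.28 in culture), the histone chaperone ASF1B (2.72 ± 0.23 with vesicles and 2.69 ± 0.23 in culture) and GINS4 (2.40 ± 0.20 with vesicles and 2.38 ± 0.20 in culture) were higher. Lower were GINS2, another subunit of the GINS helicase cofactor (-2.04 ± 0.33 with vesicles and -1.75 ± 0.33 in culture), the polymerase delta subunit POLD2 (-1.14 ± 0.18 with vesicles and -0.81 ± 0.18 in culture) and TOPBP1 (-0.53 ± 0.19 with vesicles and -0.77 ± 0.19 in culture; the call with vesicles was lost without fresh 1 or fresh 5, at adjusted p of 0.0614 and 0.0606). Thus GINS2 and GINS4, which belong to 1 complex, changed in opposite directions. Of 16 other regulators of G1 and S phase, 10 were higher and 0 lower in each culture (13 higher in culture without culture 3, with CCNC, CDK7 and CCNH gained), among them E2F3 (2.42 ± 0.20 with vesicles and 2.20 ± 0.19 in culture), CCND3 (1.98 ± 0.28 with vesicles and 2.26 ± 0.28 in culture) and CCND2 (1.33 ± 0.16 with vesicles and 1.30 ± 0.16 in culture).

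Of 23 genes that brake division, 7 were higher and 2 lower in culture with vesicles, where 27.4% of all genes were higher and 25.5% lower. In culture 8 were higher and 5 lower (9 and 4 without culture 3), against 28.7% and 25.6% of all genes, so that these counts are near the background. The medians were 0.10 with vesicles and 0.05 in culture. CDKN1A (p21), an inhibitor of cyclin-dependent kinases, had 124, 143, 175, 126 and 133 CPM in culture with vesicles, 92.3, 106, 257, 110.0 and 216 CPM in culture and 1.62, 1.32, 2.99, 8.49 and 2.83 CPM in fresh tissue. It was thus as much higher in culture as the mitotic genes with the largest folds (5.36 ± 0.49 with vesicles and 5.52 ± 0.50 in culture; without fresh 4, 6.001 with vesicles and 6.16 in culture). CDKN2B (p15), an inhibitor of CDK4 and CDK6, was higher too (2.69 ± 0.44 with vesicles and 2.98 ± 0.45 in culture). So was LIN9 (1.62 ± 0.19 with vesicles and 1.46 ± 0.19 in culture), a subunit shared by the DREAM repressor and by the complex through which B-Myb activates mitotic genes. BTG2, an antiproliferative gene known to respond quickly to stress, was lower (-1.24 ± 0.38 with vesicles and -1.37 ± 0.38 in culture). Fresh 4 had 875 CPM of BTG2, against 147 to 285 CPM in the other fresh libraries, and without it the values were -0.57 with vesicles and -0.70 in culture. CDKN1C (p57) was lower (-1.14 ± 0.33 with vesicles and -1.11 ± 0.33 in culture), and the repressor E2F5 was lower in culture (-0.84 ± 0.26) but not called with vesicles (-0.57 ± 0.26, adjusted p = 0.0742).

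Of 17 genes for DNA damage signalling and repair, 12 were higher and 2 lower in each culture (13 higher in culture without culture 3). Of all genes 27.4% were higher and 25.5% lower with vesicles, and 28.7% and 25.6% in culture. The medians of the 17 were 1.48 with vesicles and 1.31 in culture. RAD54L (2.90 ± 0.24 with vesicles and 2.87 ± 0.24 in culture) and EXO1 (4.86 ± 0.44 with vesicles and 4.88 ± 0.44 in culture) were among the higher ones, and CHEK2 (-0.46 ± 0.13 with vesicles and -0.54 ± 0.13 in culture) and ATM (-0.59 ± 0.15 with vesicles and -0.64 ± 0.15 in culture) were lower. Between the cultures 0 genes of the 5 lists were called, and 4 had an unadjusted p under 0.05 in edgeR (POLA2 -0.40 ± 0.19, CHAF1A -0.86 ± 0.40, CDK4 -0.46 ± 0.20 and CDKN2D -0.61 ± 0.27, named after their values were seen). Without culture 3 no fold change lay below -0.19 among the other replication genes, -0.16 among the other regulators and -0.37 among the brakes.

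Markers of cell types moved beside these changes. Over all genes 27.4% were called higher and 25.5% lower with vesicles, and 28.7% and 25.6% in culture. Summed over 8 basal epithelial markers, levels were 2371 to 5718 CPM in culture with vesicles, 2401 to 8096 CPM in culture and 403 to 685 CPM in fresh tissue, and 8 of 8 were higher in each culture. Over 8 principal cell markers they were 1841 to 3188 CPM with vesicles, 661 to 2927 CPM in culture and 7923 to 10565 CPM in fresh tissue, and 7 of 7 tested were lower. Leukocyte markers (11 genes) summed to 12.99 to 38.1 CPM with vesicles, 14.8 to 45.6 CPM in culture and 30.0 to 54.0 CPM in fresh tissue. Of 9 tested, 1 was higher (CD68) and 3 lower in each culture (2 lower in culture without culture 3). The count of lower ones is thus near the background. Markers of dividing germ cells (9 genes) summed to 0.354 to 1.47 CPM with vesicles, 0.355 to 0.731 CPM in culture and 0.746 to 3.70 CPM in fresh tissue, with no common direction. DAZL, DMRT1, MAEL and TEX101 had 0 counts in all 10 cultured libraries and 5, 29, 61 and 18 counts over all fresh libraries. DDX4 had 4 counts with vesicles, 0 in culture and 86 in fresh tissue. SYCP1, by contrast, had 69 counts with vesicles, 46 in culture and 53 in fresh tissue, and SYCP3 had 11, 3 and 2. In the same order SOHLH1 had 0, 10 and 11 counts, and STRA8 had 0, 4 and 0. The 1 gene of this list that was tested was not called, and without culture 3, 1 of 2 tested was lower in culture. Of other lists, epithelial markers had 3 of 10 higher with vesicles and 4 in culture, fibroblast markers 4 of 8 in each, smooth muscle 2 of 7 in each and endothelial 3 of 7 in each, with 0 lower, where 27.4% of all genes were higher with vesicles and 28.7% in culture. Without culture 3 the counts in culture were 3 higher and 1 lower (CLDN3) for epithelial, 6 higher for fibroblast, 2 for smooth muscle and 2 for endothelial markers. The calls of the collagens COL1A2 and COL3A1 with vesicles were each lost without any of 5 single libraries (without culture with vesicles 2, edgeR adjusted p = 0.134 for COL1A2 and 0.220 for COL3A1). Some epithelial, endothelial and leukocyte calls were also lost without any of several single libraries. With vesicles, edgeR adjusted p reached 0.111 for CLDN4 (without culture with vesicles 4) and 0.126 for KDR (without culture with vesicles 5). In culture it reached 0.117 for NKG7 (without fresh 5). The part of these cell types in the results was not tested.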

How the data were processed

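RNA-seq libraries from cat corpus epididymis (5 per group) were analysed from the raw read counts per gene that the authors deposited as 1 table of 38995 genes. Per the labels' protocols, RNA was purified with a Qiagen kit and libraries were built with a TruSeq Stranded mRNA kit. Tools listed in the submitters' processing notes, with no role given, are StringTie 2.1.3b, Bowtie2 2.3.4.1, HISAT2 2.1.0 and Trimmomatic 0.38. Genome build, annotation, counting tool, strand setting and the handling of multiply mapped reads are not stated in what was used, so counts of overlapping or similar genes are uncertain. Names and overlaps of genes were read from RefSeq (assembly F.catus_Fca126_mat1.0), with no coordinates used otherwise: 20 of the 57 genes overlap another gene, and 10 of the 26 overlapping genes had enough counts to be tested. Besides those named above, some averaged more CPM in fresh tissue than the gene they overlap. They are WIPF2 (61.6, CDC6 5.71), SYNGR2 (68.8, TK1 3.20), EXOSC9 (24.0, CCNA2 4.25), RCCD1 (10.6, PRC1 4.76) and LOC105260622 (7.41, KIF23 2.28). The same limit holds for these genes.

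Genes were kept by edgeR's filterByExpr (minimum count 10, minimum total 15), scaled by TMM and tested with edgeR's quasi-likelihood F test (version 4.0.16, R 4.3.3; 2-sided, 1 fit of all 15 libraries with 12 residual degrees of freedom, group as the only term). Each SE was taken from F as |log2 fold change| / √F. CPM uses TMM-scaled library sizes, and log2 CPM adds a prior count of 2. The script was tested on simulated data. Alternatives were DESeq2 1.42.0, limma-voom (limma 3.58.1) with quality weights, other scalings and filters, fits of 2 groups and the replicate block. Each library of the 2 groups compared was also left out in turn.

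Replicate numbers come from the labels. Deviations from the group means of same-numbered libraries correlated at 0.242 to 0.362 between culture with vesicles and fresh tissue. Between the cultures they correlated at 0.181 to 0.602. Each library correlated best with its own number, so these numbers were taken to pair the libraries. The main fit, with group as the only term, does not use this pairing, and the replicate block does. Between the cultures the SE of CCND1 was 0.32 without the block and 0.16 with it, and that of CDK2 was 0.17 and 0.18. The 57 genes, the 14 further lists (241 of 247 genes matched) and the alternatives were chosen with earlier results of these data known. Values by library were given for genes chosen by role, for the gene of smallest p in each role and for each gene not called; CCNB2 and E2F8 were added after their values were seen. From other lists up to 3 genes per direction with the smallest p were named, except 1 that is not reported here. No gene sequence was used.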

Additional observations from a re-analysis of the deposited data

Results flagged for a closer look

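In 8 of 180 groups of 5 libraries examined, the highest or lowest library stood farther from the rest than Dixon's 95% limit allows, where chance flags about 1 group in 20. Values are log2 CPM with a prior count of 2. In culture with vesicles, replicate 3 was high for AURKB (4.61, against 4.19 to 4.29 in the other libraries of the group) and for TTK (4.13 against 3.15 to 3.34), and replicate 1 was low for KIF23 (4.60 against 4.86 to 4.96). In culture, replicate 3 was low for CCNE2, with 0 counts (-3.49 against 1.70 to 2.16), and high for MCM7 (8.04 against 6.55 to 6.97). In fresh tissue, replicate 5 was high for CDC25C (1.33 against 0.65 to 0.77), and replicate 1 was low for CDKN3, with 0 counts (-3.49 against -1.29 to -0.40), and for PRC1 (2.00 against 2.29 to 2.36).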

How the results depend on the processing

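No fold change of the 57 genes that was called changed sign under any alternative. In either comparison with fresh tissue the counts of higher genes stayed at 53 to 54 without any 1 library of the 2 groups compared. Libraries of the remaining group, which share the fit, were not left out singly. The count of lower genes turned on BUB1B alone. In culture against fresh tissue it was 0, and 1 with DESeq2, with upper-quartile scaling and with the replicate block, and 0 to 1 without single libraries. With vesicles against fresh tissue it was 1, and 0 with no filter, and 0 to 1 without single libraries. The cause was not tested. PCNA was called with limma-voom in both comparisons (adjusted p = 0.000465 with vesicles and 0.00213 in culture). In fits of culture with vesicles and fresh tissue alone PCNA, CCNB1 and MCM10 were called (adjusted p = 5.73e-05, 0.0345 and 0.0450), and CCNB1 also with limma-voom (adjusted p = 0.0126).

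Deviations of culture and fresh libraries with the same number correlated at 0.198 to 0.344 in 4 of 5 pairs, each library closest to its own number, but at 0.0326 for culture 3, which was closest to fresh 1. Not every pair passed 0.1, so pairing was not assumed in this comparison, although the vesicle libraries pair with both groups. With the block 10438 genes were called there, against 9786 without it, and the block changed no other call among the 57 genes. With limma-voom quality weights, folds of CCNE2, E2F8, CDKN3, NDC80, CENPA and CENPE in both comparisons and of CDT1 with vesicles were over 1.5 times larger (in culture, CCNE2 5.15 and E2F8 6.53). Upper-quartile scaling moved the median log2 fold change of all genes from 0.01 to -0.09 with vesicles. Leaving out single libraries gave 8833 to 9125 called genes in culture with vesicles and 9039 to 11090 in culture, each against fresh tissue. Few counts limit CCNE2, E2F8, CDT1, CDKN3, NDC80, CENPA and CENPE in fresh tissue.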
